A study of Mus musculus with 12 samples.

Results

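The genes described here were those, apart from 12 left out by name, whose transcript was higher in caudal than in rostral neocortex of mouse embryos in every pool of tissue measured. They were chosen by the deposited log2 ratios themselves. Values at the ceiling were dropped, each array was centred on its median, ratios were turned to rostral over caudal, and the 2 arrays of a pool and then the probes of a symbol were averaged. A symbol entered when all 6 pools lay below 0 and their mean was -0.4 or less. A ratio of -1 means 2 times as much signal in caudal as in rostral RNA. Of 15063 symbols on the array, 8879 had a value in every pool. Of these, 214 (2.41%) were below 0 in all 6 pools and 78 (0.878%) also met the mean. The 12 left out were Nr2f1, Lhx2, Fgfr3, Fgf11, Flrt3, Tenm2, Ltbp1, Notch2, Slit2, Mt1, Gabra2 and Btg1. Of these 8 met the rule, which left 70 genes. In the opposite direction, 83 symbols were above 0 in every pool with a mean of 0.4 or more. Because the ratios chose the genes, they are given as a description with no test.

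Neocortex was taken at embryonic stage E13.5 from the outbred mouse strain MF1 and the inbred strain C57 (C57Bl\6 in the design text), and its rostral and caudal ends were compared within each pool. The labels give no mutation, transgene or treatment, no separate control group and no sex. There were 3 pools per strain, each of tissue from 3 embryos per the labels, while the design text gives a minimum of 2 embryos and single litters. After amplification of the cDNA, every pool went onto 2 arrays that carried Cy3 and Cy5 in opposite orientation. Whether pools of 1 strain represent different litters is not stated, so p-values measure the spread between these pools, which may be technical.

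Which channel was the numerator is not stated in the labels. Cy5 over Cy3 was assumed, which makes "higher caudally" the likely direction. Its basis is 1 gene, Nr2f1, a nuclear receptor known to be graded towards caudal cortex, whose mean ratio was then -1.14. In a list of caudal or medial cortex transcription factors that holds Nr2f1, 15 were measured, 11 below and 4 above 0. Among the 4 is Pax6, a progenitor factor not specific to caudal cortex, at 0.40 ± 0.18 (SD, n = 6). Emx2 of this list averaged 0.09 ± 0.27 (SD, n = 6), with 3 of 6 pools below 0. The 12 arrays had values for 17998 to 20997 of 21998 probes. Over the 11071 probes measured on every array, turned arrays of the same dye orientation correlated at -0.0445 to 0.368 (30 pairs, median 0.0502) and the 2 arrays of a pool at -0.328 to 0.173 (6 pairs, median -0.0468). The spread of an array, its SD estimated from the median absolute deviation, averaged 0.487 on MF1 and 0.745 on C57 arrays. The files used held ratios with no spot intensities, so the level of a transcript and its signal over background are unknown, and the labelled tissue could be checked against its markers by ratio only. In pooled tissue, fewer cells of a type and less RNA per cell cannot be told apart.

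Early cortical progenitors carry graded levels of transcription factors and of receptors for signals from the rostral and the caudal and medial edges, and these gradients guide where the later areas form. The marker of the set, Rbm20, encodes an RNA-binding regulator of splicing, best known from heart muscle, where it controls the splicing of titin.

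RefSeq promoter entries (build GRCm38.p6) were matched by gene identifier for 50 of the 70 genes. The 3 printed here for the 250 bases before the start belong to genes that lay below 0 on all 12 arrays: Rfx4, a winged-helix transcription factor, Cadps, a priming factor of dense-core vesicles, and Tnc, the matrix glycoprotein tenascin C. They show what the searched motifs look like in place. RefSeq lists 2 starts each for Rfx4 and Tnc, and for every gene the first listed start was used, so the windows of Rfx4 and Tnc are not their only promoters. Capitals mark matches on either strand to 1 of 6 motifs. These were the nuclear receptor site AGGTCA, the homeodomain core TAATTA, the core CTTTGA of Tcf and Lef factors, the Sp core GGGCGG, the box CCAAT read by nuclear factor Y, and the TATA box, searched as TATAAA.
Rfx4, chr10:84755798-84756047, plus strand: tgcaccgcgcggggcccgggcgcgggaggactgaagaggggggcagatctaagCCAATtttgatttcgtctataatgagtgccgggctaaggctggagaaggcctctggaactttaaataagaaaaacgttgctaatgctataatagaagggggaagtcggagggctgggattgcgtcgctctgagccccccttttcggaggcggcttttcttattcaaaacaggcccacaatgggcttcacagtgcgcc
Cadps, chr14:12823080-12823329, minus strand: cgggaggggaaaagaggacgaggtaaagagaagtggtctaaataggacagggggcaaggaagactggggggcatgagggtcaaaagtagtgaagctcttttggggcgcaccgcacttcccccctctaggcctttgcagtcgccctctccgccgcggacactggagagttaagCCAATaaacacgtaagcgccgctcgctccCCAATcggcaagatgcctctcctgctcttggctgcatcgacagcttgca
Tnc, chr4:64047016-64047265, minus strand: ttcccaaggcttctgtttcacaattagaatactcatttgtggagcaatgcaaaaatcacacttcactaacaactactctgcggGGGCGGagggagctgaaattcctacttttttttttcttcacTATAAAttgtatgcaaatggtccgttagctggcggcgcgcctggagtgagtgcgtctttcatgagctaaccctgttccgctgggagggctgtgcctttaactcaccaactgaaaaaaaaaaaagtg
The Rfx4 sequence held 1 box of nuclear factor Y, that of Cadps 2, and that of Tnc 1 Sp core and 1 TATA box. Across the 50 matched genes, the nuclear receptor site was in 8% of promoters, against 11% of the 6962 promoters of symbols measured in every pool and 13.8% of all 27025. The homeodomain core was in 2% (2.79% of measured, 4.9% of all) and the Tcf and Lef core in 4% (11.4% and 14%). The Sp core was in 60% (55% and 32.9%), the nuclear factor Y box in 34% (36.2% and 34.5%) and the TATA box in 12% (8.17% and 13%). Median GC content was 58.0% in the set, 58.8% in measured and 52.0% in all promoters. These are shares of windows that hold the letters and nothing more.

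Rbm20 had ratios of -1.09, -1.14 and -1.40 in MF1 pools 1 to 3 and -0.94, -0.73 and -0.85 in C57 pools 1 to 3. Every pool lay at -0.73 or lower, the 6 pools lay close together, and MF1 pools were all below C57 pools. The mean was -1.03 ± 0.24 (SD, n = 6), a 2.04-fold difference, and all 12 arrays were below 0. Means of other genes are likewise over 6 pools with their SD. The size differed with the dye: arrays with rostral RNA in Cy3 averaged -1.32 and those with rostral RNA in Cy5 -0.73. Its 2 probes also differed. Probe 2 read -1.72, -1.78 and -2.36 in MF1 pools 1 to 3 and -1.70, -1.59 and -0.12 in C57 pools 1 to 3, with C57 pool 3 far above the other pools. Probe 1 read -0.47, -0.50 and -0.44 in MF1 pools 1 to 3 and -0.18, 0.12 and -1.57 in C57 pools 1 to 3, with C57 pool 2 above 0 and C57 pool 3 far below the rest. The tight spread of Rbm20 therefore holds for the mean of both probes, since the probes parted in opposite directions in C57 pool 3. The order of the strains held on probe 2 but not on probe 1, where C57 pool 3 lay below every MF1 pool.

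Of a list of 61 splicing regulators, 49 were measured, 26 below and 23 above 0, with a median of -0.01 against 0.01 over all 14418 features tested. Apart from Rbm20, which its ratios chose, 0 genes of that list had an unadjusted limma p under 0.05 on either side, against 4.64% of all features on the lower and 4.34% on the higher side. After Benjamini-Hochberg adjustment 0% of all features passed in this comparison. Of 18 transcripts spliced by Rbm20 in heart, 13 were measured, 4 below and 9 above 0, with a median of 0.06. Tpm1, a tropomyosin, was below 0 in all C57 pools and above 0 in all MF1 pools, with a mean of -0.29 ± 0.43. Cacna1c, the pore subunit of an L-type calcium channel, averaged 0.82 ± 1.04 (SD, n = 5), and Pdlim3, a sarcomere adaptor, 0.35 ± 0.25. These 3 had an unadjusted limma p under 0.05 and 0 of the 13 passed after Benjamini-Hochberg adjustment. These ratios measure amounts of transcript and say nothing about splice forms.

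**Figure D1:**
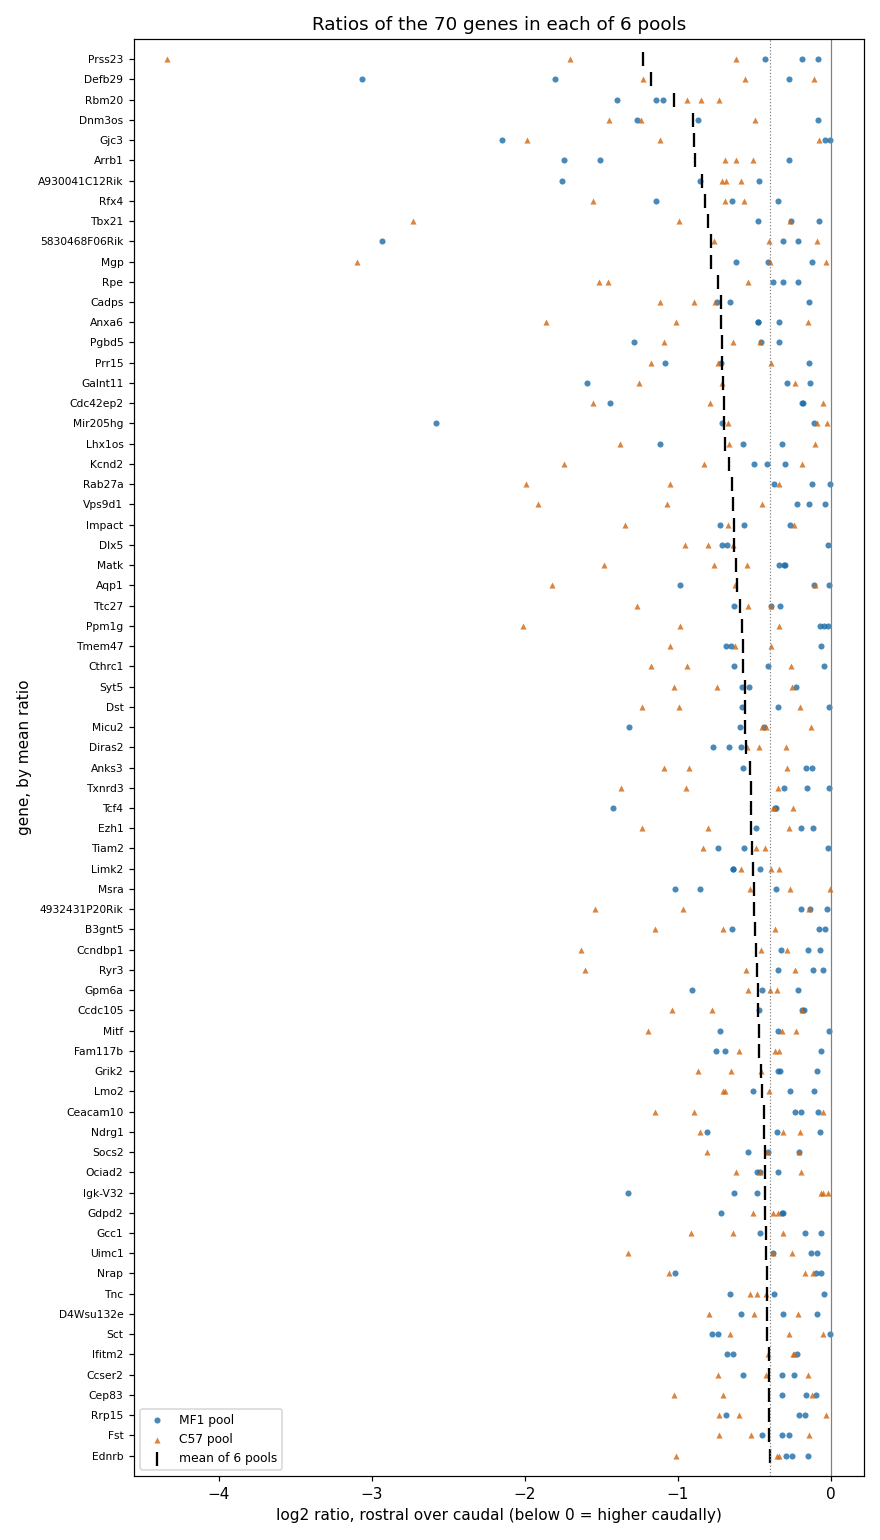
Each row is a gene, ordered by its mean, each point the log2 ratio (rostral over caudal) of 1 pool, circles MF1 and triangles C57, with the mean of 6 pools as a black bar and the threshold of -0.4 as a dotted line. Rbm20 is the third row and has all pools between -1.40 and -0.73, while the first row, Prss23, spreads from -4.34 to -0.08.

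Across the 70 genes the means had a median of -0.54 and the SD over pools a median of 0.42, from 0.13 for Limk2 to 1.63 for Prss23. Means were below -1 in 3 genes and -0.5 or less in 43. In 37 genes the highest pool was above -0.1, and in 17 every pool was at -0.2 or less. The plot of ratios by pool shows both kinds: Limk2, Diras2, Ociad2 and Gdpd2 form narrow bands, and Prss23, Defb29, Mgp and Tbx21 long ones. A narrow band of pools can average opposed arrays. In C57 pool 2, arrays with rostral RNA in Cy3 and Cy5 read 1.277 and -1.869 for Diras2 and 0.498 and -1.181 for Gdpd2. Ociad2 was below 0 on 12 arrays and Limk2 on 11. In 15 genes the mean moved by over 1.5 times when the lowest pool was left out. C57 pool 2 was the lowest pool of 27 genes, against 4 to 12 for each of the other pools. Of the 12 arrays, that with the widest spread (0.8807) and the fewest values belonged to this pool. How often this pool was the lowest over all symbols was not counted. The median of the set was -0.69 in C57 pool 2 and between -0.54 and -0.33 in the others. Applied to 5 pools, the rule kept 115, 158 and 193 genes without MF1 pools 1 to 3 and 118, 91 and 95 without C57 pools 1 to 3. Just inside the threshold lay Rrp15 at -0.4051, Fst at -0.4048 and Ednrb at -0.4001, and just outside Polk at -0.3997, Vamp8 at -0.3956 and Cby2 at -0.3893.

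Regulators of transcription formed a group of 8 with Rbm20 (groups by function were drawn up after the values were seen). Rfx4, which is needed for dorsal midline structures of the brain, had ratios of -1.15, -0.65 and -0.34 in MF1 pools 1 to 3 and -0.57, -0.69 and -1.56 in C57 pools 1 to 3. All pools were clearly below 0, C57 pool 3 the lowest, and the mean was -0.82 ± 0.44. It lay below 0 on all 12 arrays, at -0.93 and -0.72 on average with rostral RNA in Cy3 and in Cy5. Dlx5, a homeobox factor of ventral forebrain and interneurons, had ratios of -0.71, -0.02 and -0.68 in MF1 pools 1 to 3 and -0.95, -0.81 and -0.64 in C57 pools 1 to 3. MF1 pool 2 stood near 0 and the other 5 pools close together, for a mean of -0.63 ± 0.32. Tcf4, a basic helix-loop-helix partner of neurogenic factors, had ratios of -1.43, -0.36 and -0.36 in MF1 pools 1 to 3 and -0.38, -0.25 and -0.37 in C57 pools 1 to 3, with MF1 pool 1 far below the rest; the mean was -0.52 ± 0.44 and -0.34 without that pool. Both Tcf4 probes averaged below 0, at -0.35 and -0.77. Tbx21, a T-box factor best known from T cells, had ratios of -0.47, -0.26 and -0.08 in MF1 pools 1 to 3 and -0.99, -0.27 and -2.73 in C57 pools 1 to 3, so that C57 pool 3 set much of its mean of -0.80 ± 0.997, which was -0.41 without it. Ezh1, a histone methyltransferase of Polycomb complexes, averaged -0.52 ± 0.43. Lmo2, a LIM-only factor of blood and vessel precursors, averaged -0.45 ± 0.23, but its arrays averaged -1.13 with rostral RNA in Cy5 and 0.23 in Cy3. Mitf, the pigment cell and eye regulator, averaged -0.47 ± 0.42, with 1 of its 4 probes above 0 on average. That probe, at 0.15, was the only 1 with a value in all 6 pools, and just 2 of these were below 0. Probes 2 to 4 had values in 4, 4 and 2 pools, so the mean of Mitf mixes different probes in different pools. Both arrays of its C57 pool 2 were above 0, at 2.165 and 0.383.

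The ventral list, to which Dlx5 belongs, lay on both sides of 0. Of 24 genes 18 were measured, 8 below and 10 above 0, with a median of 0.04, and pool medians ran from -0.13 to 0.21. The neighbour and partner Dlx6 had ratios of 0.34, 0.51 and -0.17 in MF1 pools 1 to 3 and -0.81, 0.49 and -2.80 in C57 pools 1 to 3, on both sides of 0. Dlx1 averaged -0.03 ± 0.26, Dlx2 0.23 ± 1.01, Gad2, an enzyme of GABA synthesis, -0.09 ± 0.51 and Lhx6, a factor of interneurons, 0.25 ± 0.71. Zic1, a zinc finger factor, was above 0 in all pools at 0.78 ± 0.31. Dlx5 was the 1 gene of the list in the set, and the part of ventral cells in its ratio was not tested.

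Genes of channels, receptors and vesicle release numbered 9. Cadps had ratios of -0.14, -0.75 and -0.66 in MF1 pools 1 to 3 and -0.76, -1.12 and -0.90 in C57 pools 1 to 3. MF1 pool 1 was nearest to 0 and the other 5 pools lay between -1.12 and -0.66, for a mean of -0.72 ± 0.32. All 12 arrays were below 0. Gjc3, a connexin of gap junctions, had ratios of -2.15, -0.04 and -0.008 in MF1 pools 1 to 3 and -1.98, -1.12 and -0.08 in C57 pools 1 to 3, in a split of 3 low pools and 3 pools near 0, with a mean of -0.90 ± 0.999. Some of these pools average opposed arrays. With rostral RNA in Cy3 and Cy5, Gjc3 read 0.596 and -4.561 in C57 pool 1 and 1.477 and -1.637 in C57 pool 3. Kcnd2, an A-type potassium channel, averaged -0.66 ± 0.57, with C57 pool 3 the lowest. Grik2, a kainate-type glutamate receptor, averaged -0.46 ± 0.27, and Syt5, a synaptotagmin of regulated secretion, -0.56 ± 0.30, each with all pools between -1.03 and -0.09. Anxa6, a calcium-dependent membrane-binding annexin, averaged -0.72 ± 0.63, and Micu2, a regulator of the mitochondrial calcium uniporter, -0.56 ± 0.40. Rab27a, a small GTPase of secretory vesicles, averaged -0.65 ± 0.75, or -0.38 without C57 pool 1. Ryr3, a calcium release channel, averaged -0.48 ± 0.58, or -0.26 without C57 pool 2, and all 4 of its probes had means below 0, from -0.59 to -0.13.

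Cytoskeletal genes and their GTPase regulators made up 7 of the set. Limk2, a kinase that phosphorylates cofilin, had ratios of -0.46, -0.64 and -0.64 in MF1 pools 1 to 3 and -0.59, -0.39 and -0.34 in C57 pools 1 to 3. This was the narrowest range of the 70 genes, with a mean of -0.51 ± 0.13. Diras2, a Ras-family GTPase of brain, had ratios of -0.67, -0.59 and -0.77 in MF1 pools 1 to 3 and -0.47, -0.30 and -0.55 in C57 pools 1 to 3 and a mean of -0.56 ± 0.16; its arrays averaged -0.99 with rostral RNA in Cy5 and -0.12 in Cy3. Tiam2, an exchange factor for Rac, averaged -0.51 ± 0.29, with probe means of -0.26 and -0.77. Dst, the linker protein dystonin, averaged -0.56 ± 0.47, and its probes stood apart at -0.13 and -0.94. Cdc42ep2, an effector of Cdc42, averaged -0.70 ± 0.67. Cep83, a protein of centriole appendages, averaged -0.41 ± 0.38, and Nrap, an actin anchoring protein known from muscle, -0.42 ± 0.48. In Nrap 4 of the 6 pools lay between -0.17 and -0.06.

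Secreted, matrix and membrane proteins were the largest group, with 14 genes. Tnc, made by radial glia among other cells, had ratios of -0.05, -0.37 and -0.66 in MF1 pools 1 to 3 and -0.42, -0.48 and -0.53 in C57 pools 1 to 3. MF1 pool 1 was close to 0 and the other pools lay together, for a mean of -0.42 ± 0.21. All 12 arrays were below 0, although 1 array of MF1 pool 1 stood at -0.001, and both probes averaged below 0, at -0.32 and -0.51. Of 18 measured genes of the radial glia list, 5 were below and 13 above 0, with a median of 0.06. Pool medians of this list ran from -0.05 to 0.27 and were below 0 in 3 of 6 pools. No gene of it passed in limma after adjustment, as 0% of all features did. At an unadjusted p under 0.05, apart from Tnc, 0 genes of the list lay on the lower side. On the higher side, which held 4.34% of all features, there were 3: Cdh2, an adhesion protein (0.49 ± 0.24), Hes5, a Notch target (0.49 ± 0.50), and Pax6, a progenitor factor (0.40 ± 0.18).

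Tmem47, a junction-associated membrane protein, had ratios of -0.69, -0.65 and -0.06 in MF1 pools 1 to 3 and -0.62, -0.39 and -1.05 in C57 pools 1 to 3. MF1 pool 3 stood near 0, and the mean was -0.58 ± 0.33, with all 12 arrays below 0. Ifitm2, an interferon-induced membrane protein, had ratios of -0.64, -0.68 and -0.22 in MF1 pools 1 to 3 and -0.25, -0.24 and -0.41 in C57 pools 1 to 3, in a narrow band with a mean of -0.41 ± 0.21 and all arrays below 0. Gpm6a, a membrane glycoprotein of growing neurites, averaged -0.48 ± 0.24, with both probes below 0 at -0.67 and -0.29. Ednrb, the endothelin B receptor, averaged -0.40 ± 0.31. Fst, the activin-binding protein follistatin, averaged -0.40 ± 0.21. Cthrc1, a secreted protein with a collagen repeat, averaged -0.58 ± 0.43 and Sct, the hormone secretin, -0.42 ± 0.35.

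Several genes of this group rested on few pools. Prss23, a secreted serine protease, had ratios of -0.08, -0.43 and -0.19 in MF1 pools 1 to 3 and -1.71, -4.34 and -0.62 in C57 pools 1 to 3, with C57 pool 2 far below all others. Its mean was -1.23 ± 1.63, or -0.60 without C57 pool 2. Defb29, of the defensin family of antimicrobial peptides, had ratios of -1.80, -0.27 and -3.07 in MF1 pools 1 to 3 and -0.11, -1.23 and -0.56 in C57 pools 1 to 3 and a mean of -1.18 ± 1.12. Mgp, an inhibitor of matrix calcification, had ratios of -0.62, -0.41 and -0.12 in MF1 pools 1 to 3 and -0.40, -3.10 and -0.03 in C57 pools 1 to 3, and its mean of -0.78 ± 1.16 became -0.32 without C57 pool 2. The list of meninges and mesenchyme that holds Mgp had 27 measured genes, 16 below and 11 above 0, with a median of -0.07 and pool medians from -0.18 to 0.12. Its collagen Col1a1 averaged -0.41 ± 0.64 and decorin (Dcn) -0.07 ± 0.42. At an unadjusted limma p under 0.05, 3 genes of the list lay on the lower and 1 on the higher side. These sides held 4.64% and 4.34% of all features. The part of such cells in the ratio of Mgp was not tested.

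Aqp1, a water channel of choroid plexus, had ratios of -0.99, -0.01 and -0.11 in MF1 pools 1 to 3 and -0.10, -0.62 and -1.82 in C57 pools 1 to 3. In 3 pools it lay at -0.11 or above, and in C57 pool 3 far below, for a mean of -0.61 ± 0.70, or -0.37 without that pool. Of 19 choroid plexus genes 10 were measured, 8 below and 2 above 0, with a median of -0.10. Pool medians of this list ran from -0.30 to 0.15. At an unadjusted limma p under 0.05, 3 of its genes lay on the lower side and 0 on the higher. Apart from Aqp1, which its ratios chose, these were Ttr and F5. The lower side held 4.64% of all features. Ttr, transthyretin, the transcript that defines choroid plexus, had ratios of -1.28, -1.20 and -0.84 in MF1 pools 1 to 3 and 1.19, -1.72 and -1.69 in C57 pools 1 to 3, so 5 pools were far below 0 and C57 pool 1 far above. Kcne2, a potassium channel subunit of the same tissue, averaged -0.51 ± 0.78, with C57 pool 3 at -2.06 and the other pools between -0.42 and 0.04. The part of choroid plexus tissue in the ratio of Aqp1 was not tested.

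**Figure D2:**
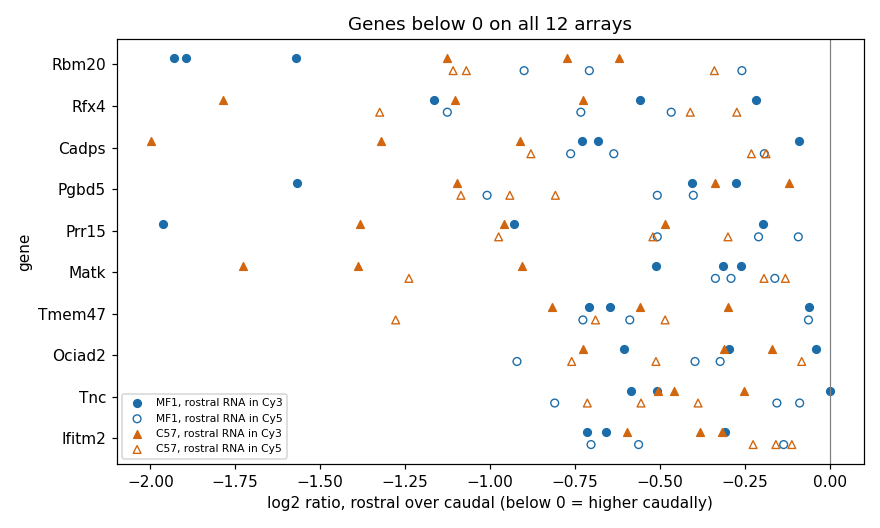
Each point is the log2 ratio (rostral over caudal) of 1 gene on 1 of 12 arrays, with MF1 in circles and C57 in triangles, filled where rostral RNA was in Cy3 and open where it was in Cy5. All points of the 10 genes lie below 0, from -1.999 for Cadps to -0.001 for Tnc.

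Every gene of the set had a value on all 12 arrays, and the genes were below 0 on a median of 10 of them. The count was 12 for 10 genes, at least 11 for 23 and at least 10 for 42, and 6 for Igk-V32, the lowest. Over the 8906 symbols with a value on all arrays, 0.225% were below 0 throughout and 0.269% above. The 10 genes shown array by array were Rbm20, Rfx4, Cadps, Tmem47, Tnc, Ifitm2, Pgbd5, Prr15, Matk and Ociad2. Pgbd5, a gene derived from a piggyBac transposase, had ratios of -0.46, -0.34 and -1.29 in MF1 pools 1 to 3 and -1.09, -0.64 and -0.46 in C57 pools 1 to 3, with MF1 pool 3 and C57 pool 1 the lowest, and a mean of -0.71 ± 0.39. Prr15, a proline-rich protein, had ratios of -1.09, -0.15 and -0.72 in MF1 pools 1 to 3 and -1.18, -0.39 and -0.74 in C57 pools 1 to 3 and a mean of -0.71 ± 0.40. Matk, a kinase that restrains Src-family kinases, had ratios of -0.30, -0.30 and -0.34 in MF1 pools 1 to 3 and -0.76, -1.48 and -0.55 in C57 pools 1 to 3. All 3 MF1 pools lay between -0.34 and -0.30 and all C57 pools below them, for a mean of -0.62 ± 0.46. Ociad2 had ratios of -0.35, -0.48 and -0.46 in MF1 pools 1 to 3 and -0.20, -0.62 and -0.47 in C57 pools 1 to 3 and a mean of -0.43 ± 0.14, in a narrow band.

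Among genes of intracellular signalling, 7 in all, Arrb1 had the lowest mean. Arrb1, a beta-arrestin that desensitises receptors, had ratios of -1.51, -1.74 and -0.27 in MF1 pools 1 to 3 and -0.62, -0.69 and -0.51 in C57 pools 1 to 3. MF1 pools 1 and 2 were far below the other 4, and the mean was -0.89 ± 0.59. Vps9d1, a protein with a Rab-activating type of domain, averaged -0.64 ± 0.72, or -0.38 without C57 pool 2. Ppm1g, a protein phosphatase, averaged -0.58 ± 0.79, or -0.29 without C57 pool 2. Ccndbp1, a partner of D-type cyclins, averaged -0.49 ± 0.58, or -0.26 without C57 pool 2. Ndrg1, a stress-responsive gene, averaged -0.43 ± 0.33, with probe means of -0.48 and -0.40. Socs2, an inhibitor of cytokine signalling, averaged -0.43 ± 0.23, with all pools below -0.2.

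The 6 enzymes of metabolism and redox balance were led by Rpe, ribulose-phosphate epimerase of the pentose phosphate pathway. Rpe had ratios of -0.22, -0.38 and -0.31 in MF1 pools 1 to 3 and -1.51, -1.46 and -0.54 in C57 pools 1 to 3, with C57 pools 1 and 2 well below the rest, and a mean of -0.74 ± 0.59. Galnt11, which starts mucin-type sugar chains, averaged -0.70 ± 0.60. Txnrd3, a thioredoxin reductase, averaged -0.52 ± 0.53, and Msra, which repairs oxidised methionine, -0.50 ± 0.38. B3gnt5, an enzyme of glycolipid synthesis, averaged -0.50 ± 0.42, and Gdpd2, a glycerophosphodiesterase, -0.43 ± 0.16, with every Gdpd2 pool at -0.31 or lower.

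Noncoding or unnamed transcripts numbered 7. Dnm3os, the antisense transcript of Dnm3 and host of microRNAs, had ratios of -0.08, -0.87 and -1.26 in MF1 pools 1 to 3 and -0.49, -1.45 and -1.24 in C57 pools 1 to 3. MF1 pool 1 stood near 0, and the mean was -0.90 ± 0.53. A930041C12Rik had ratios of -1.76, -0.47 and -0.86 in MF1 pools 1 to 3 and -0.71, -0.59 and -0.68 in C57 pools 1 to 3 and a mean of -0.84 ± 0.47, with MF1 pool 1 apart. Its MF1 arrays were all below 0, but its C57 pools average opposed arrays. C57 pools 1 to 3 read 0.488, 1.302 and 0.194 with rostral RNA in Cy3 and -1.914, -2.472 and -1.562 in Cy5. For 5830468F06Rik the ratios were -0.31, -2.93 and -0.21 in MF1 pools 1 to 3 and -0.40, -0.09 and -0.76 in C57 pools 1 to 3, so its mean of -0.79 ± 1.08 was -0.36 without MF1 pool 2. Mir205hg, the host gene of a microRNA, averaged -0.70 ± 0.97, or -0.32 without MF1 pool 3. Lhx1os, antisense to the Lhx1 locus, averaged -0.69 ± 0.48. The strand read by these probes is not stated in the labels, so an antisense transcript and its partner cannot be told apart.

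The remaining 12 genes had other or unclear functions. Pgbd5, Prr15 and Ociad2 are given with the genes below 0 on every array. Impact, which restrains the stress kinase Gcn2, averaged -0.63 ± 0.40, with all pools at -0.24 or lower, and Ttc27 averaged -0.59 ± 0.35, with all pools at -0.33 or lower. Uimc1, a DNA repair protein, averaged -0.43 ± 0.46, or -0.25 without C57 pool 2. Ccser2 averaged -0.41 ± 0.22 and Rrp15, a factor of ribosome assembly, -0.41 ± 0.30. The 7 genes of the set not described by name had means between -0.53 and -0.42. Igk-V32, an immunoglobulin kappa variable segment of the secreted and membrane group, averaged -0.43 ± 0.51, or -0.25 without MF1 pool 1. Igk-V32, Defb29 and Ifitm2 belong to families of similar genes, whose transcripts a probe may not separate.

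**Figure D3:**
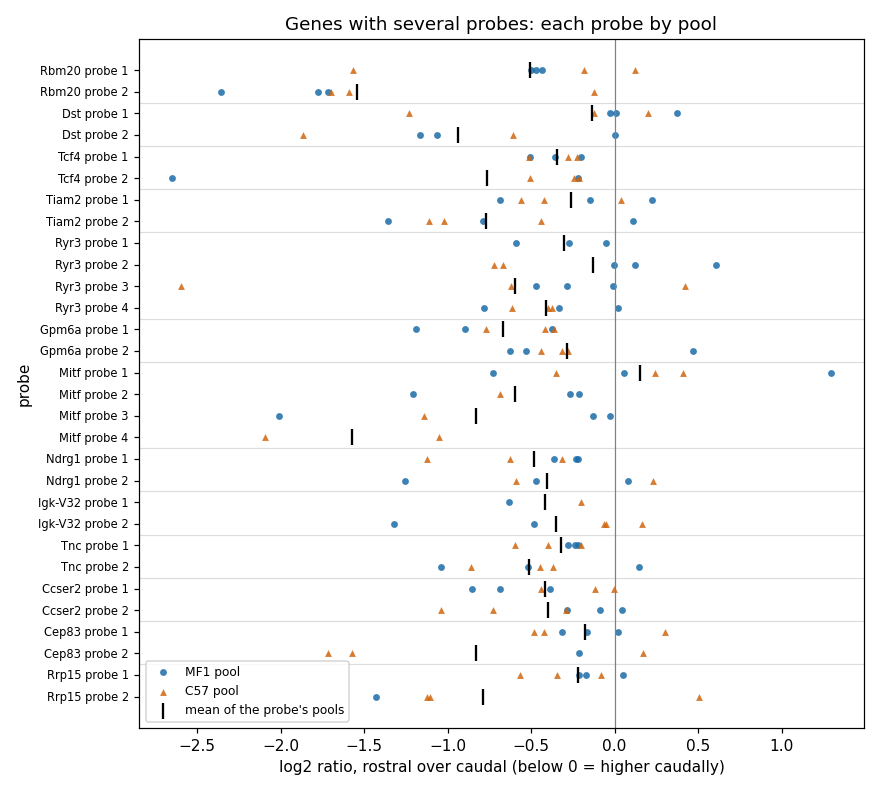
Each row is 1 probe of a gene measured by several probes, each point its log2 ratio (rostral over caudal) in 1 pool, circles MF1 and triangles C57, with the mean of the probe's pools as a black bar. The 2 probes of Rbm20 average -0.51 and -1.54, and probe 1 of Mitf is the row whose mean lies above 0.

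Most genes of the set, 57, were read by 1 probe. In the 13 with several probes, 12 had all probe means below 0, with Mitf as the exception (probe 1, 0.15). In 0 of the 13 was every probe below 0 in all 6 pools, but probe 2 of Tcf4 had no value in MF1 pool 3, and both Tcf4 probes were below 0 in every pool they measured. The plot of single probes shows how far probes of a gene parted, as in Dst and Rbm20. Rrp15, at -0.22 and -0.79, and Cep83, at -0.18 and -0.83, likewise differed between probes.

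A dye term, the part of the signal that stays with the dye when the RNAs are exchanged, was not used by the rule and was fitted with limma over all 14418 features. Of these 1.75% passed after Benjamini-Hochberg adjustment, and 0 of the 70 genes did; their smallest adjusted p in limma was 0.064, for Syt5. The count over all features was 253, and it was 0 when any 1 MF1 pool was left out, 2 without C57 pool 1 and 8 without C57 pool 2. At an unadjusted p under 0.05 there were 18 of 70, against 22.3% of all features. Positive terms mean more Cy5 than Cy3 signal, with Cy5 over Cy3 as the assumed ratio. The term was 0.57 (SE 0.10) for Syt5, 0.73 (SE 0.13) for Dnm3os, 0.37 (SE 0.07) for Fst and -0.63 (SE 0.12) for Kcnd2. The median size of the term was 0.265 in the set and 0.176 over all features. In 8 genes (5830468F06Rik, Vps9d1, Aqp1, Cthrc1, Syt5, Txnrd3, Lmo2 and Ccser2) it was larger than the ratio itself. For 59 genes both dye orientations averaged below 0. Rostral RNA in Cy5 gave a mean above 0 in 6 genes: Aqp1 (0.20), Dst, Vps9d1, Syt5, Ndrg1 and Txnrd3. Rostral RNA in Cy3 did so in 5: 5830468F06Rik (0.53), Lmo2, Cthrc1, Ccser2 and Igk-V32. In these 11 genes the direction turned with the dye.

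The difference between the strains asks whether the ratio depended on the genetic background, the reason the design text gives for using both strains. The rule did not filter on this contrast, but it filtered the same 6 pool ratios, so the p-values of the 70 genes are not free of the rule. In limma over 14418 features, 0% passed after Benjamini-Hochberg adjustment (smallest adjusted p 0.532), and so 0 of the 70 genes did, with a smallest adjusted p of 0.774. At an unadjusted p under 0.05 there were 4 of the 70 genes, against 6.10% of all features, and 3 of the 4 were lower in C57, as 3.61% of all features were. Rpe averaged -0.30 ± 0.08 in MF1 and -1.17 ± 0.55 in C57 (SD, n = 3 each), a difference of -0.87 (C57 minus MF1, SE 0.31, unadjusted limma p 0.0289). Vps9d1 averaged -0.13 ± 0.09 in MF1 and -1.14 ± 0.73 in C57, a difference of -1.01 (SE 0.38, unadjusted limma p 0.034). Ppm1g averaged -0.04 ± 0.03 in MF1 and -1.11 ± 0.84 in C57, a difference of -1.07 (SE 0.42, unadjusted limma p 0.0408). In each of these 3 genes every C57 pool lay below every MF1 pool, a pattern not counted over all features. Their C57 values parted by dye. With rostral RNA in Cy3, C57 pools 1 to 3 read -2.136, -3.686 and -1.722 for Vps9d1 and -1.858, -4.228 and -1.193 for Ppm1g. In Cy5 they read 1.232, -0.136 and -0.418 for Vps9d1 and -0.11, 0.208 and 0.516 for Ppm1g. For Rpe, C57 pool 1 read -3.318 in Cy3 and 0.292 in Cy5, while pools 2 and 3 were below 0 in both. Between the strains, Igk-V32 went the other way, at -0.81 ± 0.45 in MF1 and -0.04 ± 0.02 in C57, a difference of 0.77 (SE 0.28, unadjusted limma p 0.0292). Its pools came from different probes: MF1 pool 3 from probe 1, C57 pool 1 from both, and the other 4 pools from probe 2. Its C57 arrays lay above 0 with rostral RNA in Cy3 (0.714, 0.604 and 0.994) and below 0 in Cy5 (-0.753, -0.479 and -0.81). The mean of Igk-V32 was 0.13 when pools with 1 array of a probe counted too.

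The next genes on the C57 side were Txnrd3, with a difference of -0.73 (SE 0.31, unadjusted limma p 0.0505), and Prss23, with -1.99 (SE 0.87, unadjusted limma p 0.0588). On the MF1 side followed Msra with 0.48 (SE 0.27, unadjusted limma p 0.127), Rbm20 with 0.37 (SE 0.21, unadjusted limma p 0.127), Defb29 with 1.08 (SE 0.70, unadjusted limma p 0.167) and Micu2 with 0.45 (SE 0.30, unadjusted limma p 0.174). Rbm20 averaged -1.21 ± 0.16 in MF1 and -0.84 ± 0.10 in C57, and for the mean of its probes the 3 MF1 pools did not overlap the 3 C57 pools. On probe 1 they did: C57 pool 3 (-1.57) lay below all MF1 pools (-0.50 to -0.44). How many of all features had pools without overlap was not counted. None of these differences passed, which does not show that the strains were alike. Over the set, the C57 mean was below the MF1 mean in 52 of 70 genes, against 51.4% of all features. With arrays scaled to one spread it was 35 of 70 genes, against 52.1% of all features. Each array held 1 strain, so strain and set of arrays cannot be told apart.

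**Figure D4:**
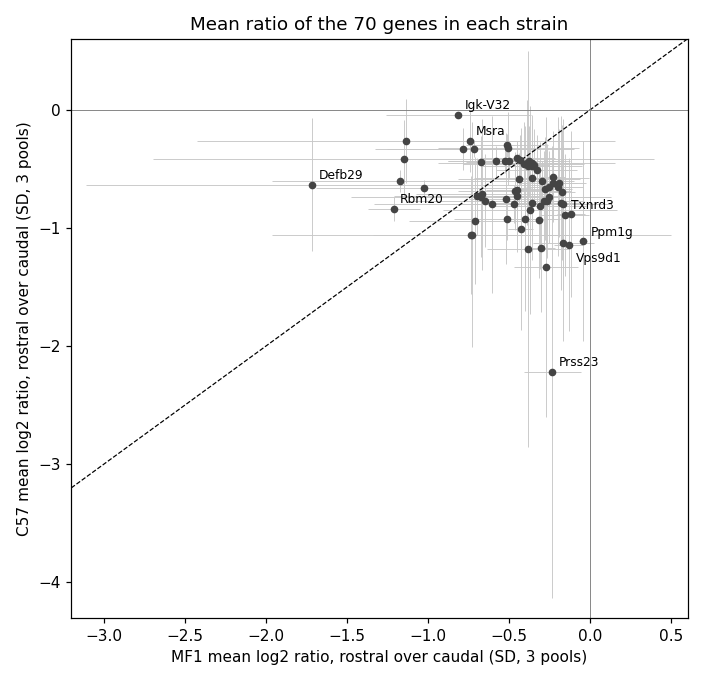
Each point is a gene of the set at its mean log2 ratio (rostral over caudal) in MF1 and in C57, with bars for the SD of 3 pools per strain, and the dashed line marks equal ratios. Points below the line are lower in C57, as 52 of the 70 genes are, and Prss23 lies lowest, at -2.22 in C57.

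In RefSeq gene order, 68 were placed and 0 pairs of them were neighbours. Ttc27 lay next to Ltbp1 (-1.17), which met the rule and was left out by name. The 135 measured neighbour genes of the 68 were below 0 in 76 cases, a share not counted over all symbols. Their median ratio was -0.02, against 0.02 over all symbols measured in every pool. In all 6 pools 4 neighbours were below 0, Ltbp1 among them, against 2.41% of all symbols measured in every pool.

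The lists of other cell types give the setting for these ratios. Since 0% of all features passed in limma after adjustment, no list could hold a passing gene. Cajal-Retzius genes had a median of -0.10 (9 measured, 6 below 0), caudal or medial cortex transcription factors of -0.08 (15 measured, 11 below 0), red blood cell genes of -0.06 (10 measured, 6 below 0) and diencephalon genes of -0.05 (11 measured, 6 below 0). Cortical hem and Wnt genes had -0.03 (25 measured, 14 below 0), olfactory and vomeronasal receptors -0.03 (73 measured, 41 below 0) and blood vessel genes -0.002 (18 measured, 9 below 0). In the hem list, Lmx1a averaged -1.33 ± 1.06 (SD, n = 4) and Gdf7 -0.71 ± 0.80 (SD, n = 5), below 0 in every pool measured. Of that list 11 genes lay above 0, among them Msx2 at 0.40 ± 0.39 and Wnt8b at 0.25 ± 0.47. Sfrp1 of that list averaged 1.04 ± 0.19, above 0 in all 6 pools. Medians were above 0 for postmitotic neurons at 0.01 (21 measured, 9 below 0), microglia and macrophages at 0.03 (16 measured, 7 below 0) and intermediate progenitors at 0.05 (16 measured, 5 below 0). At an unadjusted limma p under 0.05, all features held 4.64% on the lower and 4.34% on the higher side. The lower and higher counts were 4 and 2 for caudal or medial factors, with Nr2f1 and Lhx2 on the lower and Pax6 on the higher side. They were 4 and 2 for hem and Wnt genes, 4 and 5 for olfactory receptors and 2 and 0 for blood vessels. Intermediate progenitors had 0 and 4. None of these 10 lists holds a gene of the set, although Nr2f1 (-1.14) and Lhx2 (-0.50) of the caudal or medial list met the rule and were left out by name.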

How the data were processed

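The values used were the log2 ratios between the 2 dyes of each array, deposited by the authors in 1 table of 21998 probes and 12 arrays, with 0 columns of other samples. That they are log2 was read from the values: they are signed, lie around 0 and end at 16.61, which is log2 of 100000. Per the labels, Trizol was used to extract total RNA. SMART amplification of the cDNA is stated in the design text. Methods not given in the sources used here include image analysis, background correction, normalization and the choice of numerator channel. The number of arrays limits the precision.

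Values at that ceiling, 701 in all, were dropped. A pool had a value only where both dye orientations had one. In the platform annotation 16864 probes carried 1 symbol, 139 carried several and were left unnamed, and 4995 had no entry.

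The fits used limma 3.58.1 (R 4.3.3) on pool means, with lmFit, eBayes and 1 mean for each strain, and Benjamini-Hochberg adjustment over the 14418 features that had at least 2 pools per strain and a threshold of 0.05. They gave the strain difference and the dye term, and the rostral over caudal contrast as background only, since the rule used it. The code was tested on simulated data. The genes and lists were chosen with earlier results of these data known. Named with values were Rbm20, the 12 genes of lowest mean, those below 0 on all 12 arrays, the 8 lowest with several probes all below 0 on average, the 5 of smallest p per side for the strain difference, members of a marker list, the 3 nearest the threshold on each side, and genes of a functional group, these last after their values were seen.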

Additional observations from a re-analysis of the deposited data

Results flagged for a closer look

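In 12 of the 70 genes 1 pool stood far from the other 5, by a gap, divided by the range, over Dixon's 95% critical value for 6 values. Chance alone flags about 1 in 20 groups of normal values, and these genes were chosen by the same values. The share flagged over all symbols was not counted, so 12 of 70 cannot be called particular to the set. The low pool was C57 pool 2 in 5 genes: Mgp at -3.10, Ccndbp1 at -1.63, Ryr3 at -1.61, Uimc1 at -1.33 and Ednrb at -1.01. Without it their means were -0.32, -0.26, -0.26, -0.25 and -0.28. MF1 pool 1 was low for A930041C12Rik (-1.76) and Tcf4 (-1.425), MF1 pool 2 for 5830468F06Rik (-2.93) and MF1 pool 3 for Mir205hg (-2.58). C57 pool 1 was low for Ttc27 (-1.27) and C57 pool 3 for Tbx21 (-2.73). Dlx5 was the 1 gene with a high pool, MF1 pool 2 at -0.018, and its mean without that pool was -0.76.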

How the results depend on the processing

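The size of the set depended on most choices. It held 459 genes with arrays not centred (all 70 among them), 134 when a pool with 1 array counted (64 shared), 224 on arrays with rostral RNA in Cy5 (23 shared) and 213 on those with it in Cy3 (32 shared). It held 43 at a mean of -0.5 or less and 44 by the median (42 shared). Leaving out 1 pool gave 91 to 193 genes: 115, 158 and 193 without MF1 replicates 1 to 3, and 118, 91 and 95 without C57 replicates 1 to 3, with 50 to 66 shared. With arrays scaled to one spread it held 70, of which 59 were shared.

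Of 63 genes named with values, the mean turned positive on arrays with rostral RNA in Cy3 for 5830468F06Rik (0.53), Lmo2 (0.23), Cthrc1 (0.19), Ccser2 (0.05) and Igk-V32 (0.035). With rostral RNA in Cy5 it did so for Aqp1 (0.20), Dst (0.028), Vps9d1 (0.017), Syt5 (0.01), Ndrg1 (0.009) and Txnrd3 (0.008). Igk-V32 was at 0.13 when pools with 1 array counted, and probe 1 of Mitf at 0.15.

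In limma, the strain difference passed in 0 features under every alternative run. With the pool number as a replicate block it was 0 of 10596 complete features, with 439 at an unadjusted p under 0.05 against 497 without the block; pools of the same number were not paired (correlations of deviations -0.14, 0.06 and -0.004). The dye term passed in 147 features with arrays not centred, 70 with arrays scaled and 101 among complete features. It passed in 0 without any MF1 replicate, 2, 8 and 348 without C57 replicates 1 to 3. Rostral over caudal passed in 6 complete features and in 25 in a fit of single arrays that took pools as random blocks, against 0. That fit estimated a correlation of 0.00624 between arrays of a pool. It therefore treated the 12 arrays of 6 pools almost as independent samples, and its 25 do not count as replicated over 12 samples. The cause of these changes in count was not tested. Signal over background is unknown.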
